A study of Mus musculus with 4 samples.

Results

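The genes described here are 10 members of the JAK-STAT pathway: the transcription factor gene Stat3, the kinase genes Jak1, Jak2, Jak3 and Tyk2, the feedback inhibitor genes Socs2, Socs3 and Cish, and the effector genes Pim1 and Bcl2l1. A peak of the Isl1-Lhx3 fusion protein was given to a gene when that gene had the nearest protein-coding transcription start to the peak maximum, in GENCODE release M1 on mm9. By this rule 10 of 2454 nuclear peaks, in 8 of 2301 regions, belonged to these genes. Pim1 held 4, Bcl2l1 held 5 and Jak3 held 1, and the other 7 genes held none. At least 1 peak was held by 8.16% of the 22367 protein-coding genes. Counting any annotated gene, coding or not, 3 of the 10 still held a peak, against 5.2% of 37273 genes. The peaks were selected on their positions and the genes were chosen with earlier results of these data known, so these counts are a description and no test was made of them.

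The peaks come from Flag ChIP-seq of iMN-ESCs, mouse embryonic stem cells (A172LoxP line) in which a Tet-inducible transgene encodes Flag-tagged Isl1-Lhx3. Both partners of the fusion are LIM-homeodomain factors, which act together when motor neurons form. All embryoid bodies had retinoic acid at 0.5 µM alone for 2 days and then for 4 more days without Dox (doxycycline, 2 libraries) or with Dox at 2 µg/mL (2 libraries), and all had the cytokine LIF for 16 hours before harvest. The labels do not say whether the transfected line was 1 clone or whether the 2 sets were separate cultures. The deposited list gives 1 ChIP score, 1 background score and 1 tag count for each peak and no value per library. Library depths and the spread between sets are therefore unknown, and with Dox could not be compared with without Dox. Tag counts are given with 95% Poisson intervals, which cover counting error only.

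As background, cytokines such as LIF bring receptor chains together, and the JAK kinases attached to them phosphorylate STAT proteins. STAT3 dimers then enter the nucleus and bind sites of the form TTCNNNGAA. Socs3, Cish and Socs2 are switched on by STATs and encode inhibitors of the same pathway. Pim1, a serine/threonine kinase gene, and Bcl2l1, which encodes the survival protein Bcl-xL, are also STAT-responsive. In mouse embryonic stem cells LIF acts through STAT3 to sustain self-renewal.

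The sequences under the Pim1 peaks are shown because the 4 differ in which of 2 motifs they hold. Each line gives 200 bases of the plus strand of mm9, 5′ to 3′, with the peak maximum at base 101. Capitals mark ATTA and TAAT, the core bound by homeodomain proteins read on either strand, and the E-box CAGCTG, a site of basic helix-loop-helix factors. The stretches are chr17:29573917-29574116, chr17:29575462-29575661, chr17:29604463-29604662 and chr17:29609845-29610044, in the order of the lines.
Pim1 peak 1: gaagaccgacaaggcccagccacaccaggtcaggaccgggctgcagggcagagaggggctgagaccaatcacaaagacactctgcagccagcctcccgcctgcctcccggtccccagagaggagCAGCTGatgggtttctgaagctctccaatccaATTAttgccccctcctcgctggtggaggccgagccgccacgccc
Pim1 peak 2: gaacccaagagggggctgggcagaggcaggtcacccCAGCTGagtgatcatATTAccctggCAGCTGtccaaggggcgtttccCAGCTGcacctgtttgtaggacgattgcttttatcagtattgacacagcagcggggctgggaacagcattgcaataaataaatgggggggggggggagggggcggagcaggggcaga
Pim1 peak 3: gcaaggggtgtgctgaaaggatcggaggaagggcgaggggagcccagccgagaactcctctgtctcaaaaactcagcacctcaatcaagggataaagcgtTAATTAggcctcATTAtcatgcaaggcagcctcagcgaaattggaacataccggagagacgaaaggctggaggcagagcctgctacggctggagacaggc
Pim1 peak 4: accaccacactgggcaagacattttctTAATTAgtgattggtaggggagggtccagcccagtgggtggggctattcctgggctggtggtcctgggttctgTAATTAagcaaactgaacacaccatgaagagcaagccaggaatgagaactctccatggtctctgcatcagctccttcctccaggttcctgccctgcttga

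Peaks 3 and 4 of Pim1 carry TAATTA, the palindromic homeodomain core, and in both the match begins on the maximum base itself. Peaks 1 and 2 have no TAATTA and 1 ATTA each, and hold CAGCTG instead, once in peak 1 and 3 times in peak 2. Over all 2454 peaks, 34.3% had TAATTA in the 200 bp window, 60 (2.44%) had it over the maximum base and 11 (0.448%) had it starting exactly there. Windows with 3 or more CAGCTG numbered 3 (0.122%). The counts at the maximum and of repeated CAGCTG were chosen after these sequences had been seen.

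Pim1 had the strongest peak of the 10, and all of its peaks lay upstream of its only start in GENCODE M1, at 29627757 on chromosome 17. The peaks stood in pairs. Distances are negative upstream of a start. Peak 3, at -23.2 kb, scored 57.81 with 30 tags (20.2 to 42.8) in a region of 250 bp, and its background score was 0. Its score ranked 504 of 2454, above 79.3% of peaks. Peak 4, at -17.8 kb and 5.38 kb from peak 3, scored 32.65 against a background of 2.11, with 18 tags (10.7 to 28.4). Peak 4 thus held the sequence feature of peak 3, and 1 more TAATTA, at a score above only 16.1% of peaks. Both maxima lay in introns of the long noncoding RNA gene Gm16912, which runs on the opposite strand and overlaps the Pim1 start.

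The second pair at Pim1 was intergenic and lay 1.54 kb apart. Peak 1, at -53.7 kb, scored 31.58 against a background of 0.17, with 34 tags (23.5 to 47.5). Peak 2, at -52.2 kb, also scored 31.58 against a background of 0, with 19 tags (11.4 to 29.7). The list gives 45 peaks this score, above 9.54% of peaks, so these and the Jak3 peak are not ordered among themselves. By tags the order differed: peak 1 had more tags than peak 3, with overlapping intervals. The next nearest coding start to peaks 1 and 2 was that of Fgd2, at 60.6 and 62.1 kb, so these were the Pim1 peaks nearest to the edge of the rule.

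At least 4 peaks were held by 54 (0.241%) of the protein-coding genes, and Pim1 and Bcl2l1 were among them. The 4 peaks of Pim1 lay in 4 regions. The 5 peaks of Bcl2l1 lay in 3 regions, so it reached this number only with maxima of the same region counted apart. Pim1 is nearest to 71.6 kb of sequence and Bcl2l1 to 48.0 kb, against a median of 45.5 kb for coding genes. The plot of peak positions sets out all 10 genes.

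**Figure D1:**
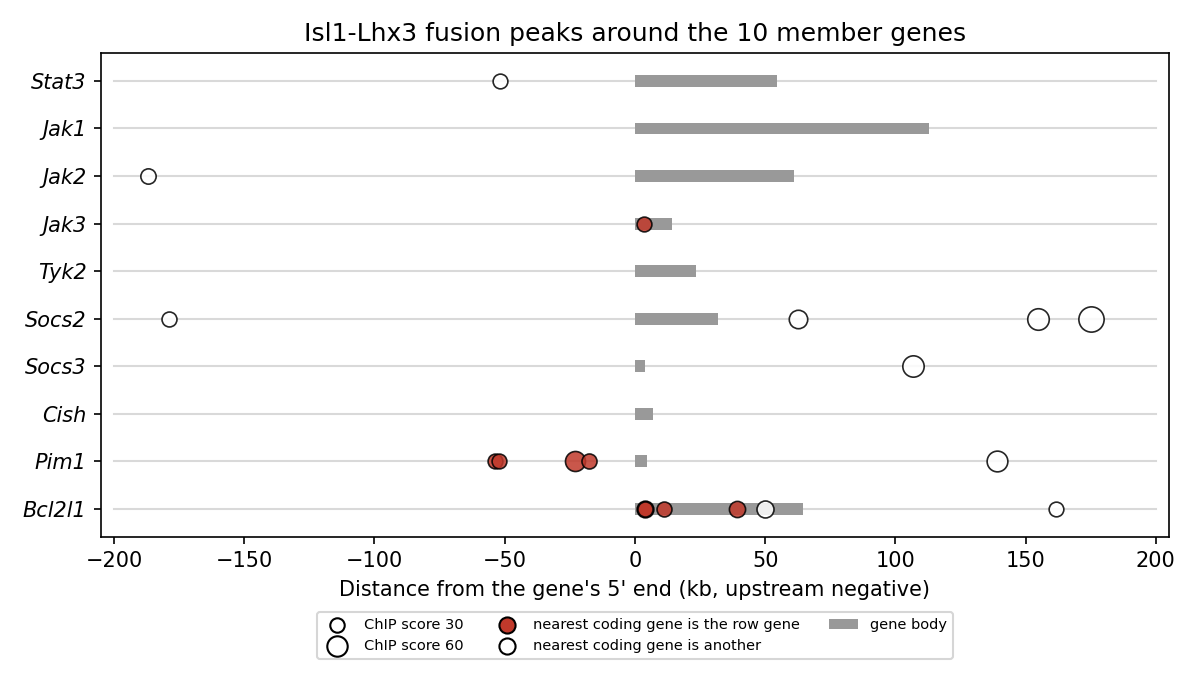
Peaks within 200 kb of the 5′ end of each member gene, as distance from that end in kb on the x axis, with 1 row per gene. Circle area grows with the ChIP score, red circles are peaks given to the row's gene, white circles are peaks nearer to another coding gene, and grey bars are gene bodies. All red circles of Pim1 lie upstream of the gene and all those of Bcl2l1 and Jak3 inside the gene, while Jak1, Tyk2 and Cish have no peak in the range.

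Bcl2l1 held its peaks inside the gene. All 5 maxima lay in the 47.1 kb intron (chromosome 2, 152608019 to 152655162) that follows the first coding exon on the minus strand. Peaks 3, 4 and 5 were maxima of a single region of 554 bp with 45 tags (32.8 to 60.2). Their scores were 34.26, 40.42 and 32.92 and their background scores 0.15, 2.05 and 0.16. Regions with 3 or more maxima were 14 of 2301 (0.608%). The maxima lay 0.688, 0.568 and 0.476 kb downstream of the nearest start, which belongs to a Bcl2l1 transcript annotated as noncoding (processed transcript). From the nearest start of a protein-coding transcript they were 2.46, 2.34 and 2.25 kb away, and from the 5′ end of the gene 3.88, 3.76 and 3.67 kb.

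The other 2 Bcl2l1 peaks lay deeper in the intron. Peak 2, at 7.89 kb from the nearest start, scored 32.12 against a background of 0, with 20 tags (12.2 to 30.9). Peak 1, at 35.8 kb, scored 37.74 against a background of 0.06, with 30 tags (20.2 to 42.8). It was only just inside the rule, since the start of Cox4i2, a cytochrome c oxidase subunit gene, was 37.6 kb from it. A sixth peak within the gene fell just outside. Its maximum, at 152607380 in the 3′ untranslated part of a last exon of Bcl2l1, was 46.9 kb from the nearest Bcl2l1 start and 26.6 kb from that of Cox4i2. It scored 41.49 against a background of 1.35, with 32 tags, and with it the Bcl2l1 gene body of 64.4 kb held 6 peaks in 4 regions.

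The Bcl2l1 sequences are shown beside those of Pim1. None of the 5 windows has TAATTA, whereas the sixth peak of the gene body, which scored above all 5, has 1 that starts 18 bases before its maximum. The first line is peak 1 (chr2:152618345-152618544) and the second is peak 2 (chr2:152646282-152646481), with the maximum at base 101. The third is 300 bases of the region with 3 maxima (chr2:152653563-152653862), with the strongest maximum at base 141. This stretch stops where an annotated Bcl2l1 exon begins, and it does not cover the whole windows of peaks 3 and 5. It therefore cuts off the end of the STAT site described below, which starts at 152653857. All are on the plus strand with capitals as above.
Bcl2l1 peak 1: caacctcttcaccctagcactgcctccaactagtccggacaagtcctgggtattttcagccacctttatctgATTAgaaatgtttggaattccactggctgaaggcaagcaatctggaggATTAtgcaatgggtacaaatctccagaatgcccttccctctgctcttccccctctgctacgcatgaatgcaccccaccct
Bcl2l1 peak 2: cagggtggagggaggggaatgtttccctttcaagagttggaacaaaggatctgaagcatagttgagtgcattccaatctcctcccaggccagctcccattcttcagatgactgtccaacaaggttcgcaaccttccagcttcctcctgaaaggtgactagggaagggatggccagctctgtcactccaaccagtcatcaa
Bcl2l1 peaks 3 to 5: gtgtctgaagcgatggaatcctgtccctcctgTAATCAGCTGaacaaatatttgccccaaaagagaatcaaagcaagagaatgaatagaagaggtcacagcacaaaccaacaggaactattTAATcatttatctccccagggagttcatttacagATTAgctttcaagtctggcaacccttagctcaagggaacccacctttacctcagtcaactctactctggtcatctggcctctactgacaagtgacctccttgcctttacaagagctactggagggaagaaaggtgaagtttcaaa
Peak 4, the strongest of the 5, has an ATTA or TAAT on each side of its maximum, starting 19 bases before and 15 bases after it. Peak 3 has a TAAT that runs directly into CAGCTG, starting 12 bases after its maximum. Peak 2 has no ATTA on either strand in its window, as had 5.83% of all peaks.

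Among the 4 JAK kinase genes Jak3 alone held a peak. Jak3 encodes the kinase that pairs with the common gamma chain of interleukin receptors and is known chiefly from lymphocytes. The peak (chromosome 8, 74203583 to 74204082) scored 31.58 against a background of 0.01, with 17 tags (9.9 to 27.2), and 6.52% of peaks had fewer tags. Its maximum lay 3.64 kb inside the gene, in sequence annotated as coding in at least 1 transcript, and 1.6 kb from the nearest Jak3 start. That start belongs to a retained-intron transcript. With only the 5′ ends of genes considered, the peak went to Gm9933, whose start was at -3.26 kb, and Jak3 held none. The nearest peak outside this region was 293.0 kb away. The sequence (chr8:74203732-74203931, maximum at base 101) is shown for its GC content and its single core, 46 bases from the maximum. GC content was 65.5%, against a median of 48.0% over all peaks. Pim1 peaks 1 and 2 were similar, with 1 ATTA each and a GC content of 64.5% and 58.5%.
Jak3 peak 1: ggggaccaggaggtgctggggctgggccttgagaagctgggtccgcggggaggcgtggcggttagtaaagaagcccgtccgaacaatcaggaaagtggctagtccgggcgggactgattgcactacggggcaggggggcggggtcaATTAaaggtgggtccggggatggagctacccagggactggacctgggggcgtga

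Jak1, Jak2 and Tyk2 held no peak. Jak1 encodes the kinase most used by gp130 receptors, the family through which LIF signals, and the nearest peak to any of its starts was 1520.0 kb away, nearest to Foxd3. For 87.8% of coding genes a peak was nearer. Jak2, the kinase of erythropoietin and growth hormone receptors, had its nearest peak at -187.0 kb (score 33.72, nearest to Ak3). Tyk2 serves interferon and several interleukin receptors. The median distance from a coding gene to its nearest peak was 344.0 kb.

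Stat3 held no peak, and the nearest one was weak and closer to a neighbour. It lay 5′ of the gene at -51.8 kb (chromosome 11, 100852387 to 100852886, intergenic), and scored 31.31 against a background of 0.29, with 20 tags. The start of Atp6v0a1, a proton pump subunit gene, was nearer, at -18.1 kb. A peak was nearer than this for 12.5% of coding genes. On the 3′ side the closest peak was 323.0 kb from the 5′ end of Stat3, in an intron of Dnajc7 and nearest to the start of Nkiras2 (score 40.68).

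The 3 inhibitor genes held no peak either. Socs2 had the closest, 38.2 kb from an internal start and 62.4 kb downstream of its 5′ end (chromosome 10, 94817139 to 94817638, intergenic). This peak scored 48.98 against a background of 1.29, with 32 tags, and was nearer to Cradd, a death-domain adaptor gene, at -30.6 kb. Socs3, the main inhibitor of gp130 signalling, had its nearest peak at 106.0 kb from a start (score 65.57, 62 tags), in an intron of Cldn27. Cish had its nearest at 425.0 kb (score 59.95, nearest to Sema3f). The windows of the peaks nearest to Stat3 (chr11:100852536-100852735) and Socs2 (chr10:94817288-94817487) are shown with capitals as above, since these are the only 2 peaks within 100 kb of a start of a gene without one. Each has 2 cores and no TAATTA.
Nearest to Stat3: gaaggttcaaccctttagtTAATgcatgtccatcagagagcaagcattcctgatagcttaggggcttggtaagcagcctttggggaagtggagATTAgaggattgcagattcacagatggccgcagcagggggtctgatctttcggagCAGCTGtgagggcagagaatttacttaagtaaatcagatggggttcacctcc
Nearest to Socs2: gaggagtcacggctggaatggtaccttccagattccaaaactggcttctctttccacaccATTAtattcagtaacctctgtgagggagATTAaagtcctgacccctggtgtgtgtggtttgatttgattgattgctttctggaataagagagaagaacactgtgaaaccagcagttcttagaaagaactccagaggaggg

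The member peaks were low in score, and by tags the reading depended on how the Bcl2l1 region was counted. Their scores ran from 31.58 to 57.81 with a median of 32.785, against 40.95 over all nuclear peaks (29.98 to 321.18), and only Pim1 peak 3 exceeded that median. Scores of 34.26 or less, the lower quartile of the list, were found at 7 of the 10, against 26.0% of all peaks. Their median tag count was 30 against 31 over all peaks. Per region, which counts the Bcl2l1 region once, it was 25 against 30. As a percentile among all peaks, the median member stood at 17.0 by score and 44.9 by tags. The latter enters the tag count of the Bcl2l1 region for each of its maxima. The background score was under 10% of the ChIP score at all 10, as at 94.6% of all peaks, and was 0 at 3 of them (against 31.1% of all peaks). The origin of the background score is not stated. The member genes were chosen with earlier results of these data known, so their low scores are not a separate observation.

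**Figure D2:**
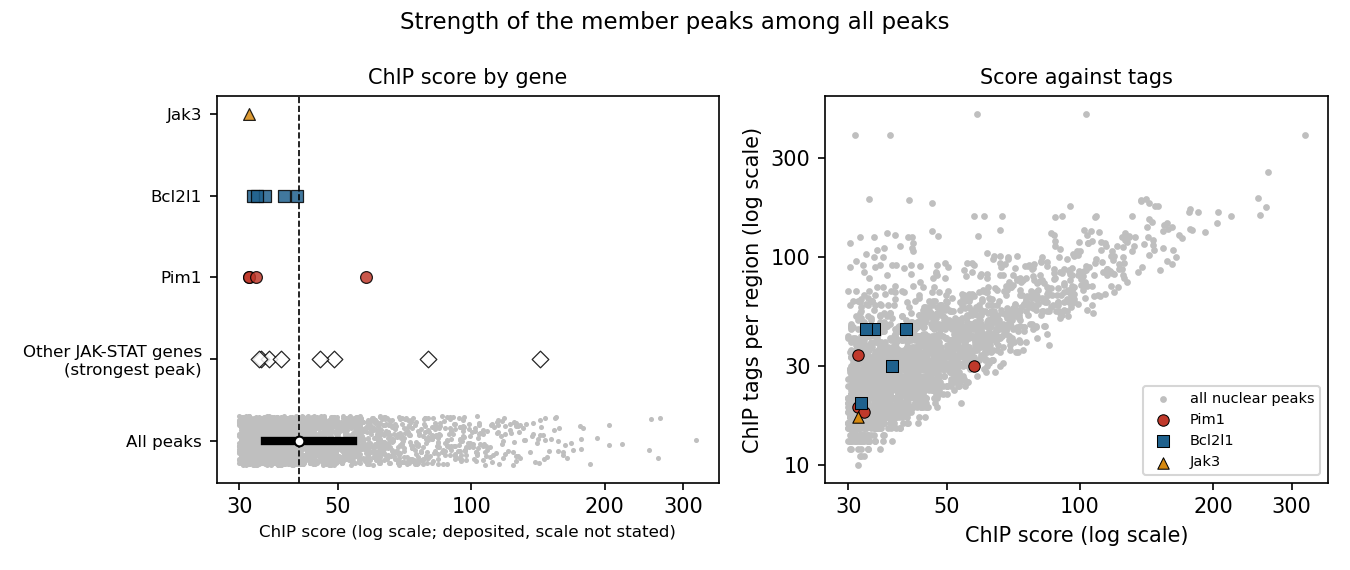
Left, ChIP score (log scale, deposited units with no stated scale) of each member peak by gene, of the strongest peak of 8 other JAK-STAT genes, and of all 2454 nuclear peaks with their median (white circle, dashed line) and quartiles (black bar). Right, ChIP tags per region against ChIP score for all peaks (grey) and the member peaks. Of the member peaks only Pim1 peak 3, at 57.81, lies right of the dashed line, whereas by tags they spread from 17 to 45.

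Most member windows held a homeodomain core. TAATTA was in 2 of 10 windows, both at Pim1, against 34.3% of all peaks. ATTA on either strand was in 9 of 10, against 94.2%, with a median of 1 match per window against 3. A TAATTA counts as 2 such matches. Windows of the same length centred 1 kb to each side of the member maxima had TAATTA in 0 of 20 cases and ATTA in 10 of 20, against 6.5% and 66.7% of the flanks of all peaks. An ATTA centred within 20 bases of the maximum was found at 4 of 10 member peaks and 56.8% of all peaks, a distance chosen after the positions were seen. The windows of Bcl2l1 peaks 3 to 5 overlap, so these 10 are not independent. Base composition also differed: the median GC content of the member windows was 52.0%, against 48.0% for all peaks. Its part in these counts was not tested.

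A STAT site was present in a single member window. The relaxed site TTCNNNGAA, on either strand, was in 1 of 10 windows, against 5.01% of all peaks. It was TTCAAAGAA at 152653857 to 152653865 on chromosome 2, starting 62 bases from the maximum of Bcl2l1 peak 5, and its last 3 bases lie in an annotated Bcl2l1 exon. The strict site TTCCNGGAA and the form with 4 bases between TTC and GAA were in 0 of 10, against 0.733% and 5.42%. None of the Pim1 windows and not the Jak3 window had a relaxed site. The peak nearest to Socs2 had one, starting 74 bases after its maximum, and that nearest to Stat3 had none. The absence of these letters from a window says nothing about where STAT3 was bound, which was not measured here.

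Other motifs were searched on both strands in the same windows. CAGCTG was in 3 of 10, at Pim1 peaks 1 and 2 and Bcl2l1 peak 3, with 5 matches in all, against 13.9% of all peaks. The SOX site ATTGTT was in 1, at Jak3, against 14.3%. The POU octamer ATGCAAAT and the pair ATTA then TAAT with 3 bases between were in 0, against 4.24% and 4.93%. The plot of motif positions shows the Pim1 pairs, which were told apart by TAATTA and CAGCTG once the sequences had been seen. Neither pair holds the motif of the other, and ATTA is in all Pim1 windows.

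**Figure D3:**
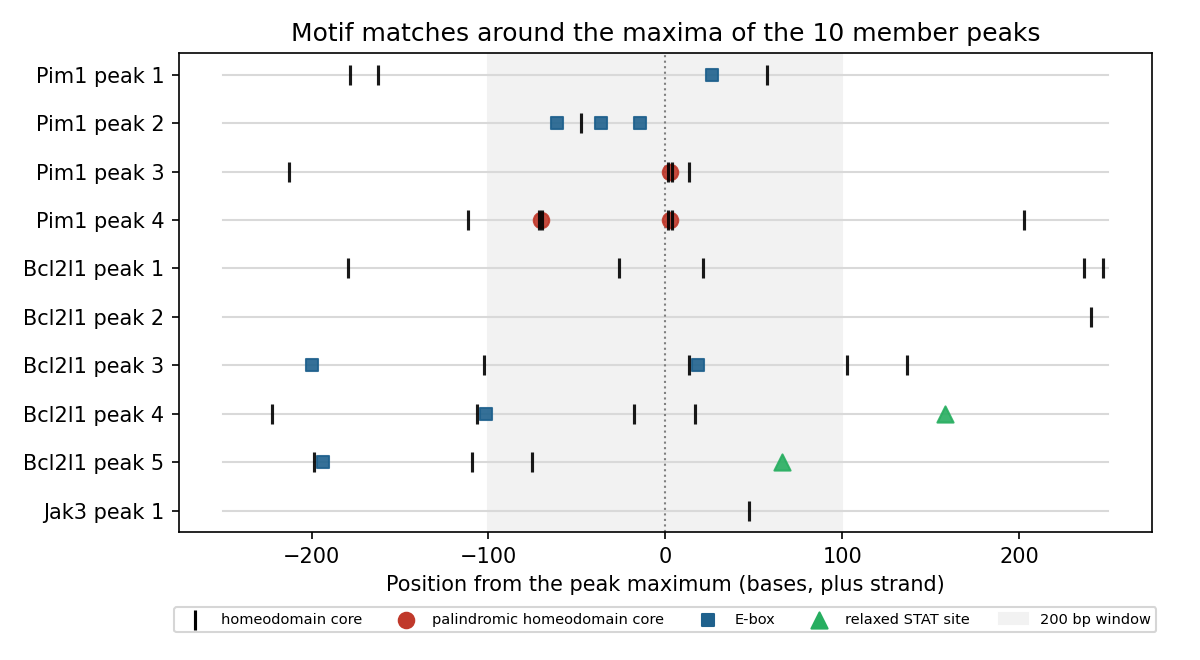
Motif matches around the maxima of the 10 member peaks, with position from the maximum in bases on the x axis and 1 row per peak. Ticks are the homeodomain core, red circles the palindromic core, blue squares the E-box and green triangles the relaxed STAT site, and the grey band is the 200 bp window. Only Pim1 peaks 3 and 4 have the palindromic core, at the maximum, and the rows of Bcl2l1 peaks 3 to 5 show the same bases shifted.

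The pathway outside these genes was read from a list of 61 other JAK-STAT genes, of which 8 (13.1%) held a peak, against 8.16% of all coding genes. With the nearest start of any annotated gene 4 (6.56%) did, against 5.2% of all genes. In the 50% of peaks with the highest score 4 did, and the share of all coding genes there is not given. Over all peaks, 3 of the 19 receptor genes held one. The peak of highest score (143.19, at -13.8 kb) was at Lifr, which encodes a receptor chain for LIF. It was followed by Il6st, which encodes the shared gp130 chain (48.98, at -75.5 kb), and Csf3r, the G-CSF receptor gene, with 3 peaks of 35.06 or less at -102.0 kb and beyond. Of 7 ligand genes Cntf, a ciliary neurotrophic factor gene, held 1 (33.46, at 34.4 kb), and Lif held none. The 13 inhibitor genes held none. With Socs2, Socs3 and Cish this made 16 inhibitor genes without a peak. With 8.16% of all coding genes holding one, so short a list can readily hold none.

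Stat2, Stat4, Stat5a, Stat5b and Stat6 held no peak. Stat6 was the closest to one, at 10.0 kb, but that peak (score 46.04) lay nearer to Nab2. Stat5a and Stat5b, the neighbours of Stat3, shared its nearest peak, at 112.0 and 141.0 kb. For Stat2 and Stat4 the nearest was 426.0 and 351.0 kb away.

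Of 16 further STAT-responsive genes 4 held a peak, against 8.16% of all coding genes. Mcl1, which like Bcl2l1 encodes a survival protein of the Bcl-2 family, had a score of 79.76 with a background score of 7.76, at 4.81 kb. Vegfa, the vascular endothelial growth factor gene, had 45.5 at 148.0 kb, and the proto-oncogene Myc 37.2 at 7.47 kb. Klf4, a pluripotency factor gene, had 33.19 at -397.0 kb and 31.58 at 54.2 kb. Pim2 and Pim3, the paralogs of Pim1, and Bcl2 held none. The scores of Lifr and Mcl1 were above that of every member peak, and those of Il6st and Vegfa above all but Pim1 peak 3.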

How the data were processed

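Flag ChIP-seq of 4 libraries, 2 with Dox and 2 without, is held in 1 peak list. Per the submitters' processing notes, BWA 0.5.8a and build mm9 were used. For the peak caller, its threshold and pooling, details were not found in the labels or the file header. The ChIP score and background score are the authors' deposited scores with no stated scale, and ChIP tags are a deposited count per region, shared by the peaks of 1 region. Of 2455 deposited peaks 1 mitochondrial peak was left out, and no peak window ran past a chromosome end of NCBIM37 (mm9).

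Each maximum was assigned to the nearest of all transcript starts of protein-coding genes in GENCODE M1. Motifs were counted in 200 bp centred on the maximum, with flanks 1 kb to each side. Coordinates are 1-based. Of the 61 genes 60 matched by symbol and Tfcp2l1 by an older symbol. Assignment and motif search were checked on simulated data (Python 3.11.15, pandas 2.3.3, scipy 1.17.1). The genes named are all members, hosts and neighbours of their peaks, the nearest peaks of members without one, and list genes with a peak. Pim2, Pim3, Bcl2 and Lif are named besides, and some genes that this rule selects are left out. Members and lists were chosen with earlier results of these data known. No test between groups was possible, so no p-value is given.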

Additional observations from a re-analysis of the deposited data

How the results depend on the processing

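No paired analysis was possible because the list gives 1 value per peak and none per library or set, so neither a replicate block nor leaving out a set could be run. With the 50% or the 25% of peaks with the highest ChIP score, 1 member gene held a peak, Pim1 with 1 peak of 57.81, and 4 and 2 of the other JAK-STAT genes did. Of that 50%, 1 member peak had TAATTA and 0 had a relaxed STAT site. Within 10 kb of a start there were 5 of the 10 member peaks, against 33.0% of all peaks. None of them was at Pim1, and Bcl2l1 peaks 3 to 5 among them share 1 region. At that distance 2 other JAK-STAT genes held a peak. With the nearest start of any annotated gene 4 did, and Bcl2l1 lost peak 1 to a microRNA gene (9 member peaks). The relaxed STAT site was found at 0 member peaks in 100 bp and 2 in 500 bp, against 2.08% and 13.7% of all peaks. Those 2 were Bcl2l1 peaks 4 and 5 of 1 region, whose windows hold the same site, at 152653857. With 1 peak per region 0 had the relaxed site, and 0 had the strict site. With gene 5′ ends alone 2 member genes held 8 peaks. The share of all coding genes with a peak is not given for the lists of highest score, the 10 kb limit or gene 5′ ends. The gene counts at these settings therefore cannot be set against it. With tags as the strength the median percentile of the member peaks was 44.9, with the tags of 1 Bcl2l1 region entered for each of its maxima. By score it was 17.0, where the 95% interval of the median ran from 9.54 to 47.8. That interval treats the member peaks as independent, which maxima of 1 region are not, so it is only descriptive. The remaining alternatives run stayed within 1.5 times the count reported, or, for the median score, within 31.58 to 40.42. The unknown depth and threshold limit what a missing peak can show.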

Other observations

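The promoters of the member genes were searched for the same sites, in RefSeq windows of GRCm38.p6 from 250 bases before to 50 after each start. All of the 10 genes but Socs2 had an entry, with 12 windows in all. The relaxed STAT site was present at Socs3 and Cish, against 9.55% of genes with an entry. At Socs3 it was TTCTTAGAA, starting 154 bases before the start, and Cish had TTCCTGGAA and TTCTTGGAA, starting 0 and 11 bases after it. Neither gene held a fusion peak, where 8.16% of all coding genes did. TAATTA was present at 1 member gene, Stat3, beginning 1 base before its start, against 6.12% of genes, and no peak was listed there. The windows of Pim1, Bcl2l1 and Jak3, the genes with peaks, had neither site, like those of most genes with an entry.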
